A study of Mus musculus with 6 samples.

Results

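In pathogenic Th17 cells carrying the RORγt N275D substitution, 115 named genes that were near-silent in WT cells were read at a low but measurable level. The members were chosen from the values themselves. A member had a WT mean under 10 normalized reads, an N275D mean of at least 10 that was also at least 2 times the WT mean, and a lowest N275D library above its highest WT library. Symbols that are only provisional, namely Gm with a number, LOC or an ending in Rik, were left out. Of the 16244 genes in the table, 4423 had a WT mean under 10, and 3890 of these carried a full name. The 115 members were 2.96% of those 3890 genes. The difference between genotypes chose the members, so it is described and carries no test of its own.

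The libraries came from naive CD4+ T cells that were activated through CD3 and CD28 and held for 3 days in a pathogenic Th17 cytokine mix. GEO lists 3 WT libraries and 3 mutant libraries from spleen, and the description of the design names IL-6, IL-1β and IL-23 as the cytokines, while the methods add TGF-β and antibodies to IL-4 and IFN-γ. The methods give an age of 6 to 12 weeks for mice in general, with groups matched for age and sex, and the labels do not say whether the mutant donors were homozygous. The knock-in mice were on a C57BL/6 background and were provided separately from the WT mice, which were bought and are listed as C57BL/6NJ, so that genotype and mouse source cannot be told apart. The paper defines n in general as independent samples, mice or experiments. Its RNA-seq methods and the labels do not say which of these the replicates were, so p-values measure only the spread between these samples.

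RORγt is the nuclear receptor that defines the Th17 lineage. It binds ROR elements in DNA and switches on the IL-17 genes, and the study concerns its contact with HIF-1α, a factor stabilized at low oxygen that binds hypoxia response elements. Genes of other lineages are normally kept near zero in T cells by closed chromatin, and a few reads of such a gene in a bulk library can come from a low output of many cells or from a small number of cells. In bulk samples, fewer cells of a type and less RNA per cell cannot be told apart.

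The libraries held 17659035 to 18510878 reads on genes. The T cell genes Cd3e and Cd4 and the Th17 cytokine gene Il17a were abundant in all 6 libraries, with Il17a means of 27495 ± 365 normalized reads in WT and 32152 ± 458 in N275D (SD, n = 3 each). Cd8a, which marks the other main T cell lineage, had means of 32.6 ± 6.698 in WT and 27.6 ± 2.67 in N275D. Cd8b1, also a CD8 marker, was more abundant and rose from 98.9 ± 5.69 to 148 ± 1.19 (SD, n = 3 each; limma adjusted p = 0.000145). The labelled cell type therefore had its defining markers in every library.

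The role of each member was assigned from general knowledge after its values had been seen. Over all members, the summed level was 674.2, 604.2 and 697.4 normalized reads in the WT libraries and 1961.7, 2025.5 and 1989.0 in N275D. These sums are between 0.00334% and 0.00384% of a WT library and between 0.0111% and 0.0114% of an N275D library. The members are thus a very small share of the RNA in both genotypes. WT means ran from 0.664 to 9.97 with a median of 5.64, and N275D means from 10.3 to 86.0 with a median of 14.96. The ratio of means had a median of 2.82 and reached 18.5. Only 3 members had an N275D mean of at least 30 (Coch, Tff1 and Pmp22), 30 had at least 20, and the other 85 lay between 10 and 20. Scaled to library size as CPM, the N275D levels were 0.582 to 4.86.

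"Near-silent" did not mean empty. No member lacked reads in all 3 WT libraries, 110 had a read in every one of them, and 5 had a single WT library at 0. As RPKM, which scales reads to exon length and library size, the median member had 0.076 in WT and 0.217 in N275D, and 7 members passed 1 in N275D. These were Tff1 at 3.15, H4c18 at 2.14, Klrc3 at 2.09, Coch at 1.62, Csta2 at 1.498, Cox6a2 at 1.38 and Mcpt8 at 1.054. The spread between the libraries of one genotype had a median chi-square per degree of freedom of 0.729 in WT and 0.562 in N275D, where counting alone gives a median of 0.693. The rule keeps genes whose genotypes do not overlap and so favours a small spread, and these values are a description only. The median coefficient of variation was 40.7% in WT and 18.2% in N275D. Each library led for some of the members: 48, 26 and 41 were highest in WT replicates 1, 2 and 3, and 35, 46 and 34 in N275D replicates 1, 2 and 3. When each of the 6 libraries was left out in turn, 58 members met the rule every time, 38 dropped out once and 19 dropped out 2 or 3 times. The difference between genotype means moved by over 1.5 times without 1 library in 4 of the 115 (Kcnd2, Oasl2, Brsk1 and Ppbp).

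**Figure D1:**
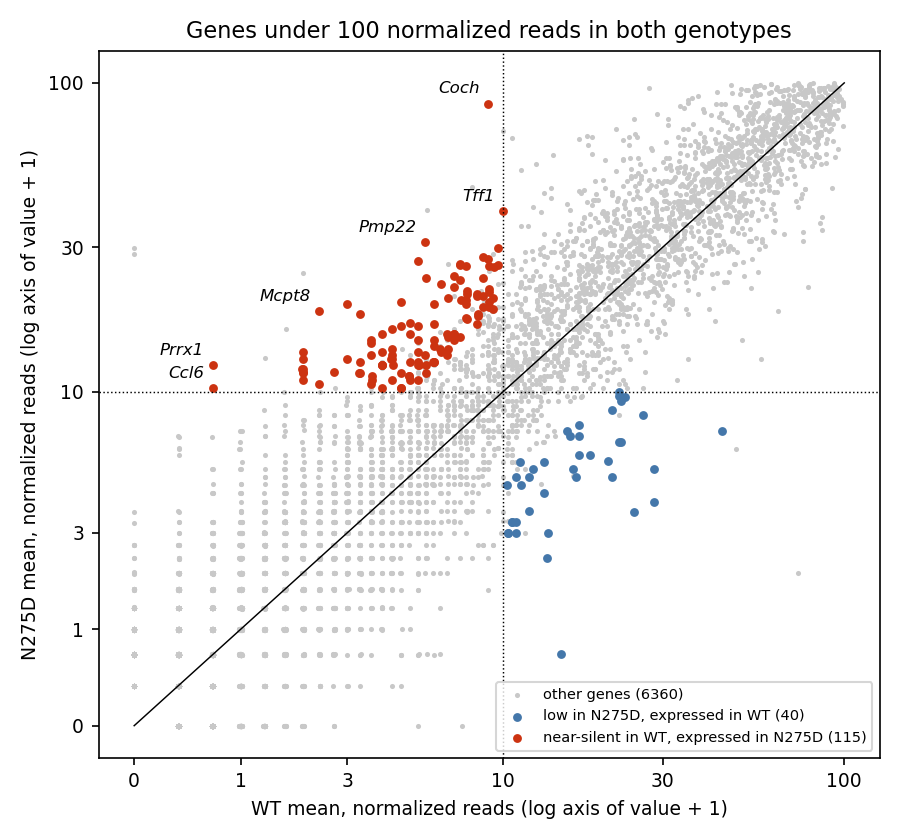
WT mean against N275D mean for genes under 100 normalized reads in both genotypes, each on a log axis of the value plus 1; red points are the 115 members, blue points the 40 genes that the exchanged rule gives, grey points all other genes, the dotted lines mark 10 reads and the solid line equality. The red points lie above 10 in N275D and left of 10 in WT, with Coch alone at 86.0, and they outnumber the blue points.

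Exchanging the genotypes gave fewer genes. The same limits, read for genes near-silent in N275D and expressed in WT, kept 40 of 3768 named genes (1.06%) against 115 of 3890 (2.96%). Without the condition on symbols the counts were 46 of 4284 (1.07%) and 139 of 4423 (3.14%). Of the 24 provisional symbols behind the latter count, 2 had no read in any WT library and N275D means of 28.5 and 29.9. Full separation of the libraries, with every N275D library above every WT library, occurred in 437 of the 4423 low WT genes (9.88%), and the opposite in 236 of 4284 (5.51%). Over all genes of the table the shares were nearly equal, at 22.7% and 22.9%.

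Rarely read genes summed to a higher level in N275D. For the 4336 genes with a mean over the 6 libraries above 0 and under 10, the summed level was 8676.1, 8632.7 and 9127.2 normalized reads in WT and 10345.4, 10199.6 and 10285.6 in N275D, a ratio of 1.17. The N275D mean was the higher one in 2426 of these genes and the lower one in 1910. With members and mirror genes removed the ratio was 1.14. Genes with a mean of 10 to 100 had a ratio of 1.13, and genes with a mean of at least 100 had 0.976. Among the low class, a read was seen for 2534 to 2656 genes in a WT library and for 2740 to 2794 in an N275D library, at similar depth. The part of this difference between all low genes in the members' values was not tested.

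Testing all genes with a mean of at least 10 (limma on log2 of normalized reads plus 1) called 325 of 11908 genes higher in N275D at 2-fold (2.73%) and 102 lower (0.857%). Of the members, 62 passed the filter on the mean and 53 did not. Of the 62, 59 were called at 2-fold, a count that the selection itself produces and that is given for completeness. The exact counting interval of the ratio of summed reads had a lower bound above 1 in 115 members and above 2 in 30. It covers counting error only, and it uses the reads that chose the members, so these counts too follow from the selection.

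Coch, which encodes cochlin, a secreted protein of the inner ear and of lymphoid follicles, stood furthest out. The gene lies on mm10 at chr12:51593283-51606619. It had 13.1, 5.04 and 8.84 normalized reads in the WT libraries and 88.8, 86.3 and 82.96 in N275D. The lowest N275D library exceeded the highest WT library by 69.8 reads, the widest gap of any member. The ratio of means was 9.56 (95% exact counting interval 6.42 to 14.8). Tff1 (chr17:31161395-31165060), a trefoil peptide of the stomach lining, followed with 9.08, 7.06 and 13.8 in WT and 33.9, 45.1 and 38.5 in N275D. Among genes of the basement membrane and matrix, Nid1 (nidogen) had 8.07, 9.08 and 11.8 in WT and 27.95, 28.1 and 33.6 in N275D. Col4a1, a collagen IV chain, was lower, with means of 6.34 ± 0.632 and 13.6 ± 3.12 (SD, n = 3 each). None of these genes had a WT library above 13.8, the highest being replicate 3 of Tff1. Fam20a, a secretory-pathway pseudokinase, had 8.07, 3.03 and 5.89 in WT and 25.96, 21.1 and 24.7 in N275D. Oit3, Mamdc2 and Otogl complete the 8 matrix and secreted genes, with N275D means of 15.6, 12.6 and 11.6. In all 8 the genotypes were separate, as the rule demands, and the N275D level of Coch was more than that of any other member.

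**Figure D2:**
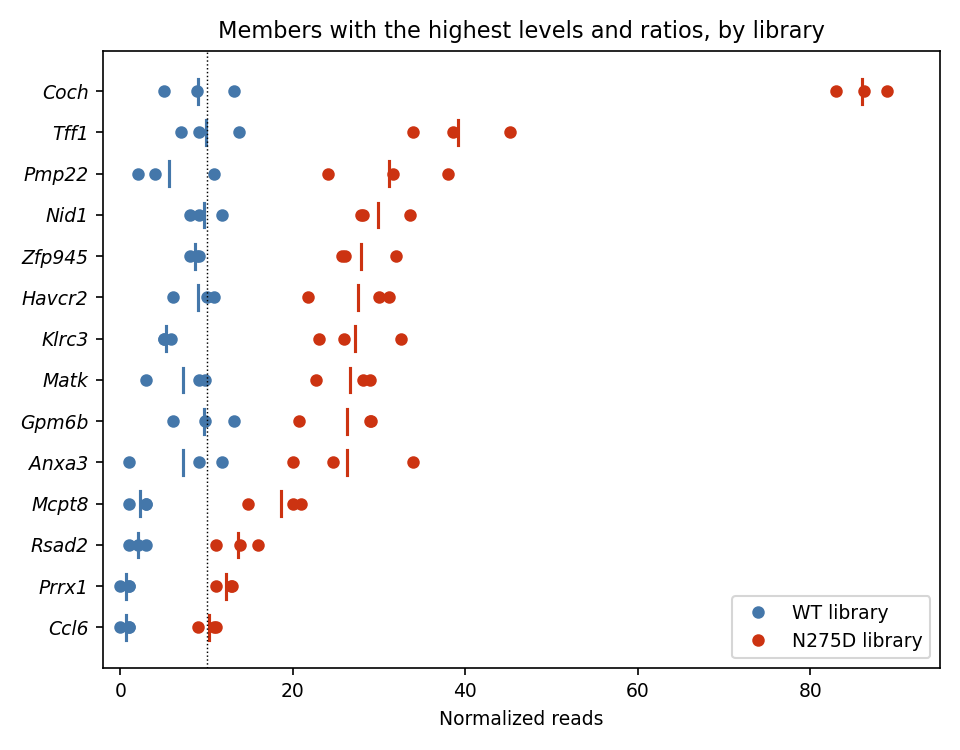
Normalized reads of 14 members in each library, for the 10 with the highest N275D mean and the 5 with the largest ratio (Coch belongs to both); blue points are WT libraries, red points N275D libraries, vertical bars the group means and the dotted line 10 reads. Coch lies between 83.0 and 88.8 in N275D, while Prrx1 and Ccl6 go from at most 1.01 to between 8.98 and 12.98.

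The 2 largest ratios belonged to genes with hardly any WT reads. Such genes can reach the N275D limit of 10 only with a large ratio, so the rule itself sets this pattern. Coch, with 27 WT reads in all, came next at 9.56. Prrx1 (chr1:163245119-163315145), a homeobox factor of limb and skin mesenchyme, had 1.01, 0 and 0.982 in WT and 12.98, 11.04 and 12.8 in N275D. Ccl6 (chr11:83587886-83593087), a CC chemokine of myeloid cells, had 1.01, 0 and 0.982 in WT and 8.98, 11.04 and 10.9 in N275D. Each rested on 2 WT reads in all, so the ratios of 18.5 and 15.5 had exact counting intervals of 4.75 to 158 and 3.93 to 133. Mcpt8 (chr14:56082163-56085499), a basophil granule protease, had 1.01, 3.03 and 2.95 in WT and 20.96, 20.1 and 14.8 in N275D, a ratio of 7.998 (3.62 to 20.7). Rsad2, the interferon-induced antiviral enzyme viperin, had a ratio of 6.84 (2.87 to 19.6). Wide intervals of this kind mean that the order of the ratios among these genes is not resolved.

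Genes of myeloid cells, basophils and platelets formed the group with the highest median ratio, 6.01 over 8 members. It also had the lowest WT level per member, 2.27 to 3.68, from which the N275D limit of 10 is met only with a large ratio. Beside Ccl6 and Mcpt8 the group held Mmp12, the macrophage elastase, with 2.02, 4.03 and 2.95 in WT and 16.97, 21.1 and 20.7 in N275D. Il1b, the gene of the inflammatory cytokine IL-1β that was itself in the culture mix as protein, had 4.04, 0 and 2.95 in WT and 13.98, 8.03 and 9.88 in N275D. The platelet chemokine genes Pf4 and Ppbp are next to each other on chromosome 5, 2.4 kb apart. Pf4 had 1.01, 3.03 and 1.96 in WT and 8.98, 14.04 and 12.8 in N275D. Ppbp had 2.02, 0 and 3.93 in WT and 19.97, 7.02 and 8.89 in N275D. Ppbp was highest in N275D replicate 1, where Pf4 was lowest, and the 3 N275D libraries did not rank the neighbours alike. Without that library the difference in Ppbp means fell from 9.98 to 5.97. Csta2, a stefin inhibitor of cysteine proteases, and Serpinb9b, an inhibitor of granzyme-like proteases, had N275D means of 16.9 and 13.3, and both have close paralogs with which reads may be shared.

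Marker lists of these cells were read beside the members. Of the 10 mast cell and basophil markers in the table, Mcpt8 was the one member, and the summed level was 55.0 to 69.6 normalized reads in WT and 118.8 to 131.4 in N275D. Kit and Hdc made up most of that sum, with means of 30.4 ± 9.67 and 23.6 ± 3.92 in WT and 45.9 ± 12.7 and 36.9 ± 3.59 in N275D (SD, n = 3 each; limma adjusted p = 0.0548 and 0.0155). Cpa3 had means of 0.982 ± 1.70 in WT and 6.28 ± 4.85 in N275D. The Fc receptor chains Fcer1a and Ms4a2 had at most 1.98 normalized reads in any library, each with means of 0.336 in WT and 1.33 in N275D. Tpsb2 had at most 1.01 in any library. Prss34, another basophil protease, lay just below the limit with 2.02, 0 and 2.95 in WT and 10.98, 10.03 and 8.89 in N275D. Pf4 and Ppbp were members among 6 platelet markers, whose summed level was 80.7 to 98.2 in WT and 217.3 to 228.6 in N275D. Gp9 and Gp1bb, subunits of the platelet von Willebrand factor receptor, had at most 4.99 reads in any library, with Gp9 at 0 in all WT libraries, while the integrin gene Itgb3 rose from 53.3 ± 5.78 to 147 ± 2.36 (SD, n = 3 each; limma adjusted p = 5.61e-08). No member was among the B cell, monocyte, neutrophil or dendritic cell markers. The neutrophil markers summed to 8.1 to 13.1 in WT and 16.8 to 19 in N275D, the 11 monocyte markers to 149.3 to 177.5 and 204.7 to 244.6, and the 13 B cell markers to 1475.6 to 1529.2 and 2110.4 to 2161.9. These sums were not moved by all markers alike. Among the monocyte markers Ccr2 rose from 24.002 ± 5.05 to 63.7 ± 9.27, while Adgre1, which the exchanged rule selects, had 22.6 ± 3.22 in WT and 6.64 ± 3.05 in N275D (SD, n = 3 each), and Itgam and Fcgr1 had nearly equal means. Ebf1 made up most of the B cell sum, with means of 986 ± 16.1 and 1479 ± 62.3. Of the 11 tested B cell markers, 6 were higher and 0 lower by limma at any fold change, beside 24.7% and 26.1% of all tested genes. The part of such cells in the members' values was not tested.

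Immune receptors and signalling proteins gave 8 members, with ratios of 2.39 to 5.11. Havcr2 (chr11:46454931-46481255), which encodes the inhibitory receptor TIM-3, had 10.1, 6.05 and 10.8 in WT and 29.9, 31.1 and 21.7 in N275D. Klrc3, of the NKG2 family of lectin receptors, had 5.05, 5.04 and 5.89 in WT and 25.96, 23.1 and 32.6 in N275D. Its paralog Klrc1 rose from 132 ± 9.12 to 308 ± 31.1 (SD, n = 3 each; limma adjusted p = 2.55e-08), and Klrc2 had means of 3.66 ± 1.53 and 6.31 ± 3.502 and was below the filter. Reads of Klrc3 may be shared with these neighbours. The markers of CD8 T and natural killer cells, 12 in the table and none a member, summed to 329.0 to 358.1 in WT and 500.7 to 559.0 in N275D. Limma called 6 of the 7 tested higher and 0 lower at any fold change, beside backgrounds of 24.7% and 26.1%. Not all of these markers rose, as Fcgr3 had means of 6.04 in WT and 5.99 in N275D, and Klrb1c 1.01 and 0. Matk, a kinase that restrains SRC-family kinases, had 9.08, 3.03 and 9.82 in WT and 28.95, 28.1 and 22.7 in N275D. Ccr1, a receptor for inflammatory chemokines, had 9.02 ± 2.11 in WT and 21.6 ± 1.37 in N275D (mean ± SD, n = 3 each). Gpr141, an orphan receptor, had 6.33 ± 0.474 in WT and 22.9 ± 4.84 in N275D, with WT libraries within 1 read of each other. Tlr9, the endosomal sensor of bacterial DNA, was at 4.04, 1.01 and 5.89 in WT and 13.98, 13.04 and 17.8 in N275D. Cd59a, which blocks the membrane attack complex of complement, and H2-Q2, a class I gene of the Qa region with many close copies, had N275D means of 13.6 and 21.2.

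Interferon-induced genes gave 5 members: Ifit3, Usp18, Rsad2, Oasl2 and Ifi209. Interferon signalling acts through factors that bind the interferon-stimulated response element upstream of such genes. Ifit3, an antiviral protein with tetratricopeptide repeats, had 6.06, 5.04 and 11.8 in WT and 19.97, 26.1 and 32.6 in N275D. Usp18, which removes ISG15 and dampens the receptor, had 13.1, 8.07 and 5.89 in WT and 21.96, 16.1 and 19.8 in N275D. Rsad2 had 1.01, 2.02 and 2.95 in WT and 15.97, 11.04 and 13.8 in N275D. The rule demands separate genotypes of every member. Among the 5 genes the margin was narrowest in Oasl2, at 0.932 reads, followed by Usp18 at 2.93. Oasl2 spread from 6.99 to 19.06 among the N275D libraries, and its difference in means was 8.29 with all libraries and 4.92 without N275D replicate 2. Ifi209, a sensor-family gene with close paralogs, had N275D libraries from 11.9 to 12.98. In the group as a whole the sum per library was 20.2 to 33.3 in WT and 77.9 to 88.9 in N275D.

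Other genes of the response, from a list of 45 written after these values had been seen, moved in both directions, more often upward. In the table were 42, and 28 that were not members were tested; limma called 15 of them higher and 3 lower at any fold change, against backgrounds of 24.7% and 26.1%. Ifit1, next to Ifit3 on chromosome 19, rose from 33.7 ± 3.84 to 151 ± 10.1 (SD, n = 3 each; limma adjusted p = 2.17e-09). Isg15 had 55.5, 44.4 and 50.1 in WT and rose to 127, 140.4 and 115 in N275D (adjusted p = 5.09e-07 from limma). Ifih1, a sensor of double-stranded RNA, fell from 1016 ± 78.9 to 794 ± 16.5 (adjusted p = 0.000104 from limma). Ifit3b, the near copy of Ifit3, had 0, 2.02 and 2.95 in WT and 4.99, 14.04 and 3.95 in N275D, and reads of both may be shared.

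The response element was read here as GAAA repeated after a spacer of 2 bases on either strand. It was found in 2 of the 4 interferon-induced members with a promoter in RefSeq, and also in Cd59a and Kcnd2. It was in 4.26% of the 94 members with a promoter, 3.45% of other genes near-silent in WT and 3.49% of all promoters, and this motif was added after the values had been seen. The stretches below, on GRCm38.p6 and 5′ to 3′ on the strand of the gene, show it in capitals upstream of the start of both interferon-induced members and of Cd59a.
Ifit3: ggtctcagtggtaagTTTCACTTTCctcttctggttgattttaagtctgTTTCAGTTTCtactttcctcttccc
Rsad2: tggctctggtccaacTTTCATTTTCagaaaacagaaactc
Cd59a: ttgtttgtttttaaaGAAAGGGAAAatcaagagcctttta
They lie at chr19:34583358-34583431 (plus strand), chr12:26456548-26456587 (minus strand) and chr2:104095599-104095638 (plus strand). GENCODE places no gene there, while the RefSeq span of Ifit3 begins upstream of its stretch. Ifit3 holds a pair of matches within 74 bases, and the N275D means of Ifit3, Rsad2 and Cd59a were 26.2, 13.6 and 13.6.

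Linker and core histones gave 5 members, H1f3, H1f4, H1f5, H3c7 and H4c18. They sit in the histone clusters of chromosome 13, with H3c7 10.1 kb from H1f3, H1f3 66.0 kb from H1f4, and H1f5 51.2 kb from H4c18. H4c18 had 6.06, 4.03 and 2.95 in WT and 16.97, 21.1 and 10.9 in N275D. H1f4 had 6.06, 3.03 and 1.96 in WT and 9.98, 13.04 and 9.88 in N275D. Ratios were 2.17 to 3.75, and the sum of the 5 was 17.2 to 28.3 in WT and 51.4 to 69.2 in N275D. Replication-dependent histone messages mostly end without a poly-A tail, and the labels describe poly-A selection. Of 63 histone genes in the table, 26 that were not members were tested, 4 of them higher and 1 lower by limma at any fold change, beside backgrounds of 24.7% and 26.1%. This list too was drawn up after the values had been seen. Histone genes are near copies of each other, and their reads may be shared. All 4 histone members with a promoter in RefSeq held the letters TATAAA in the window, shown in capitals for 3 of them because no other role group held them throughout.
H1f4: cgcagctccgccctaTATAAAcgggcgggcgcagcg
H1f5: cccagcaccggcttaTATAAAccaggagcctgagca
H4c18: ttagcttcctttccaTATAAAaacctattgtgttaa
These 36-base stretches are on GRCm38.p6 at chr13:23622565-23622600, chr13:21780633-21780668 and chr13:21832304-21832339, all on the minus strand and between genes. Those of H1f4 and H1f5 end 7 and 8 bases before the start, and that of H4c18 ends 107 bases before it, farther than a TATA box usually lies.

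Genes known mainly from nerve, glia and excitable cells numbered 14, and receptors and channels for transmitters and hormones another 5. Pmp22 (chr11:63128982-63159547), a myelin membrane protein, had 4.04, 2.02 and 10.8 in WT and 37.9, 24.1 and 31.6 in N275D. Gpm6b, a proteolipid of neurons and oligodendrocytes, had 13.1, 6.05 and 9.82 in WT and 28.95, 29.1 and 20.7 in N275D. Vstm5, an immunoglobulin-domain membrane protein of neurons, had 6.06, 13.1 and 7.86 in WT and 24.96, 22.1 and 31.6 in N275D. The other 11 (Myo16, Sgip1, Gnaz, Cpne6, Pdzd4, Brsk1, Nacad, Syt17, Clec2l, Psd and Mapk8ip1) had N275D means of 10.3 to 24.2. The 14 genes had ratios of 2.21 to 5.55 and summed to 76.7 to 81.5 in WT and 244.8 to 247.6 in N275D. Among the receptors, Chrna4, a nicotinic acetylcholine receptor subunit, had 4.04, 3.03 and 2.95 in WT and 17.97, 18.1 and 18.8 in N275D, among the tightest values of all members. Trhr2, Htr7 and Gpr119, receptors for thyrotropin-releasing hormone, serotonin and lipid amides, had N275D means of 20.9, 18.3 and 10.96. Kcnd2, a potassium channel gene, had 24.96, 9.03 and 10.9 in N275D, with replicate 1 far above the other two, and 8.07, 7.06 and 5.89 in WT. Its difference in means was 7.94, and 2.94 without that library. For Brsk1, a kinase of neuronal polarity, the difference was 8.63, and 5.63 without N275D replicate 1. None of the 10 neuronal markers in the table was a member, and their summed level was 642.9 to 713.2 in WT and 1304.8 to 1344.3 in N275D. Most of that sum was Gap43, with means of 502 ± 24.7 in WT and 1032 ± 9.05 in N275D (SD, n = 3 each). Stmn4, whose WT mean lay just over the limit of 10, rose from 10.7 ± 1.52 to 67.1 ± 1.13 (limma adjusted p = 3.5e-08). Syp had means of 40.95 ± 6.05 and 37.2 ± 5.10, and Syt1, Stmn3, Nefl and Nefm had at most 3.01 reads in any library. Of the 6 tested markers, 4 were higher and 0 lower by limma at any fold change, beside backgrounds of 24.7% and 26.1%.

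Developmental signalling genes gave 8 members. Lgr5, the R-spondin receptor known from intestinal stem cells, had 3.03, 11.1 and 7.86 in WT and 19.97, 31.1 and 19.8 in N275D. Wnt11, a WNT ligand, had 5.05, 7.06 and 8.84 in WT and 13.98, 15.05 and 17.8 in N275D. Porcn, the enzyme that lipidates WNT proteins, had 4.04, 4.03 and 3.93 in WT and 14.97, 10.03 and 11.9 in N275D. The WT libraries of Porcn were almost level, and those of Lgr5 were spread widely, with replicate 1 the lowest. Acvr1c, a type I receptor of the TGF-β family, had 11.1, 5.04 and 6.88 in WT and 16.97, 16.1 and 19.8 in N275D. Sema4g, Flrt3 and Efna5 belong to the guidance families of semaphorins, FLRT proteins and ephrins, and Ltk encodes a receptor tyrosine kinase. This group had the lowest median ratio of all, 2.29, and Ltk and Efna5 had gaps of 0.209 and 1.16 reads between the genotypes.

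Transcription factors and chromatin proteins gave 11 members. Zfp945, a zinc finger gene, was the highest, with 9.08, 8.07 and 8.84 in WT and 31.9, 26.1 and 25.7 in N275D. Samd11, a SAM-domain protein of the retina, had 9.08, 11.1 and 7.86 in WT and 20.96, 27.1 and 29.6 in N275D. Zfp618, Tshz2, Zfp532, Msantd3 and L3mbtl1 had N275D means of 23.9, 21.3, 20.9, 15.3 and 14.96. The patterning factors Foxf1 and Hoxb9, which mark visceral mesoderm and posterior trunk, had 4.99 ± 0.929 and 4.34 ± 2.55 in WT and 12.6 ± 1.48 and 12.9 ± 4.31 in N275D (SD, n = 3 each). Rfx8 was at 12.6 in N275D. Apart from Prrx1, the group spanned ratios of 2.10 to 3.22.

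Enzymes and transporters made the largest role group, with 16 members. Chst3, a sulfotransferase of chondroitin chains, had 10.1, 6.05 and 3.93 in WT and 22.96, 15.05 and 23.7 in N275D. Noxo1, an organizer of the NADPH oxidase NOX1, had 9.08, 6.05 and 7.86 in WT and 17.97, 26.1 and 16.8 in N275D. Steap4, a metalloreductase, had 8.07, 10.1 and 7.86 in WT and 19.97, 15.05 and 22.7 in N275D. In Steap4 and Chst3, N275D replicate 2 was the lowest of its group and lay nearest to WT. Cox6a2, the muscle form of a respiratory complex IV subunit, had 3.03, 5.04 and 5.89 in WT and 11.98, 17.1 and 20.7 in N275D. Epm2a, the glycogen phosphatase laforin, had the largest ratio of the group at 5.82 (2.42 to 16.9). Hephl1 and Selenom act in copper-dependent iron oxidation and in selenoprotein redox chemistry, and Atp4a is the gastric proton pump. Their N275D means were 14.3, 12.3 and 11.6. The other 8, B3gnt8, Plce1, Selenbp2, Cers3, Cyb5r2, Gdpd2, Etnk2 and Try5, had N275D means of 10.6 to 17.6.

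Cytoskeletal and kinase genes gave 13 members. Anxa3, a calcium-dependent membrane-binding annexin, was the highest with 1.01, 9.08 and 11.8 in WT and 33.9, 20.1 and 24.7 in N275D. Cnksr1, a scaffold of RAS signalling, had the largest ratio of the group at 6.51 (2.72 to 18.7), with 1.01, 2.02 and 2.95 in WT and 11.98, 14.04 and 12.8 in N275D. Myh7b, a slow myosin heavy chain, and Camk1, a calcium and calmodulin-dependent kinase, had N275D means of 19.6 and 14.9. The 9 others (Arhgap36, Dennd2a, Filip1, Exph5, Sgce, Wnk3, Pdlim4, Nek11 and Dcdc2a) had N275D means of 11.6 to 21.9. Germ cell genes were 3 of the members: Rnf17, Erich2 and Akap3 had N275D means of 19.6, 13.9 and 11.6, and none of them was in the germline list, whose 9 measured genes held no member. The 11 genes given no role (Fam114a1, Tmem45a, Ypel4, Tmem253, Fbxl21, Fam184b, Lhfpl2, Zcchc14, Fbxl16, Fbxw10 and Samd4) had N275D means of 10.96 to 22.3.

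**Figure D3:**
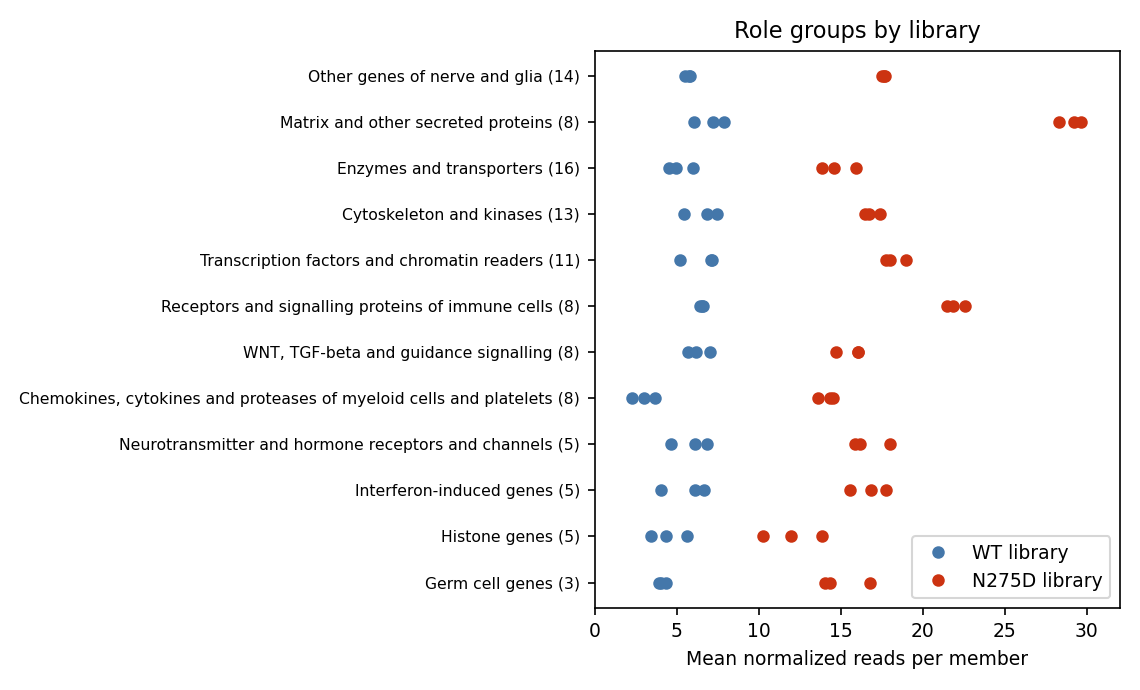
Mean normalized reads per member in each library for the 12 role groups, with the number of members in brackets; blue points are WT libraries and red points N275D libraries. Matrix and secreted genes reach 28.3 to 29.6 per member in N275D, led by Coch, while the myeloid and platelet group starts lowest, at 2.27 to 3.68 in WT.

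The genes that define the cell or the pathway under study were outside the set. None of the 20 Th17 lineage genes, 15 Th1 genes or 50 hypoxia-responsive genes in the table was a member, and 0, 0 and 3 of them had a WT mean under 10. Of the hypoxia-responsive genes 47 were tested by limma, 30 higher and 11 lower at any fold change, beside backgrounds of 24.7% and 26.1%. Of the 20 Th17 lineage genes 11 were higher and 8 lower.

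The members were spread over the genome. Chromosome 2 held 12, chromosome 13 held 11, and chromosomes 3 and 18 held 1 each. Beside the histone and Pf4 pairs, the members within 500 kb of one another were Fbxw10 and Pmp22 (251.5 kb), Mcpt8 and Rnf17 (317.2 kb), and Hephl1 and Vstm5 (126.7 kb). Selenbp2, a selenium-binding protein gene, was the member on chromosome 3. It had 4.04, 4.03 and 2.95 in WT and 11.98, 16.1 and 15.8 in N275D, and its paralog Selenbp1 rose from 67.5 ± 17.3 to 194 ± 30.9 (SD, n = 3 each; limma adjusted p = 7.01e-07).

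Promoter windows, from 250 bases before to 50 after the start, were in the RefSeq table for 94 of the 115 members. The core of the hypoxia response element, ACGTG or GCGTG on either strand, occurred in 47 of the 94, against 42.2% of other genes near-silent in WT, 43.8% of all promoters and 58.7% of the genes in the table. The ROR core site AGGTCA was found in 14.9%, against 16.1%, 16.0% and 13.1%. The E-box CACGTG, which contains the hypoxia core, was in 4.26%, against 6.59%, 7.24% and 9.42%. The TATA box TATAAA was in 23.4%, against 13.6%, 14.2% and 8.45%. Windows of members held a median of 10.5 CpG, between 8 in other near-silent genes and 19 in the genes of the table. These shares are descriptions of short letter matches and not of binding.

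**Figure D4:**
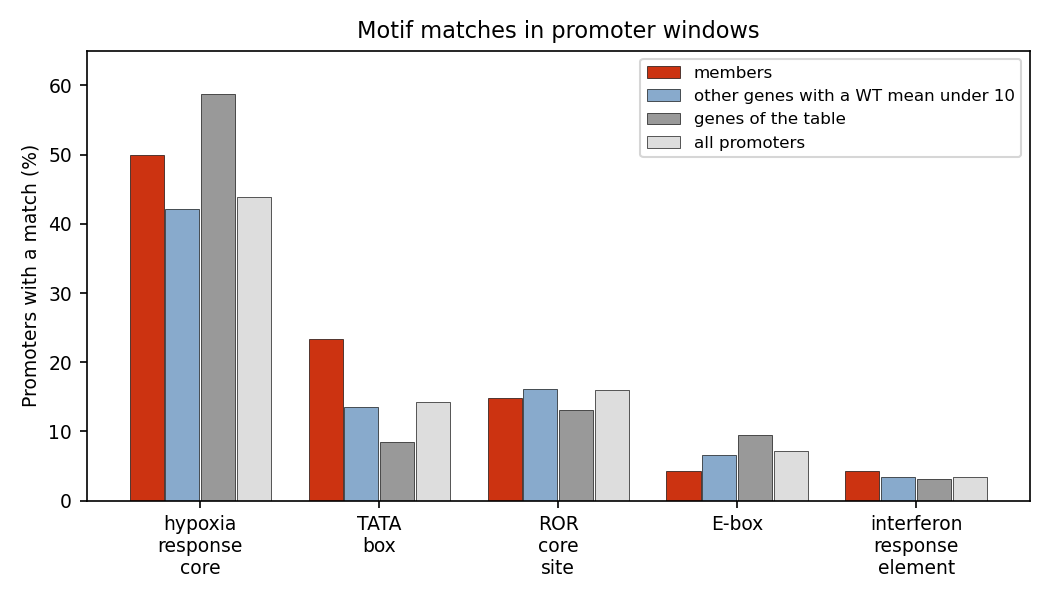
Share of promoter windows with at least 1 match to each motif, in percent, for the 94 members with a window, other genes with a WT mean under 10, the genes of the table and all promoters. Members hold the TATA box in 23.4% against 13.6% of other low genes, and the ROR core site in 14.9% against 16.1%.

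A hypoxia core and a ROR core site lay in the same window in 7 members, namely Csta2, Fam114a1, Havcr2, Myh7b, Ppbp, Samd11 and Sgip1. The share of windows with both motifs was not computed for other near-silent genes or for all promoters. Whether the count of 7 exceeds coincidence was therefore not tested. The members whose matches both lie upstream of the start and outside exons are printed with the motifs in capitals. This pair of motifs was chosen because RORγt and HIF-1α are the factors the study brings together.
Havcr2: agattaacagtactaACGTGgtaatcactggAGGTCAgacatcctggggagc
Csta2: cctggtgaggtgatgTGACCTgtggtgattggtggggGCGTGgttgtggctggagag
Sgip1: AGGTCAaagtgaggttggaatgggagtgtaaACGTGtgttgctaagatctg
On GRCm38.p6 these are chr11:46454816-46454867, chr16:36221386-36221442 and chr4:102759885-102759935, all on the plus strand. Those of Havcr2 and Csta2 lie between genes, and that of Sgip1 lies inside the gene but in no exon. Havcr2 has already been given, and Sgip1, an endocytic protein of nerve terminals, had 9.08, 9.08 and 3.93 in WT and 13.98, 23.1 and 23.7 in N275D.

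The limits of the rule fell within a continuous run of genes. Just inside the WT limit were Tff1, Gpm6b and Nid1, at 9.97, 9.67 and 9.65, and just outside were Rpl39l, Meis2 and Bhlhe41 at 10.03, 10.3 and 10.6. At the N275D limit, Ccl6, H1f5 and Mapk8ip1 had means of 10.29, 10.29 and 10.30, and Tmem40, Inca1 and Prss34 had 9.98, 9.97 and 9.97. At the ratio limit, Efna5, Filip1 and Fbxl21 had 2.003, 2.03 and 2.04, against 1.99 for each of Kank1, Ephb2 and Creb3l4. Try5, Ltk and Wnk3 had the smallest gaps between genotypes, 0.0802, 0.209 and 0.776 reads, and Slc4a3, Igsf23 and Serpinb1b fell outside with -0.0428, -0.0441 and -0.0939. In 10 members the gap was under 1 read and in 17 it was over 10.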

How the data were processed

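The 3 WT and 3 N275D RNA-seq libraries of pathogenic Th17 cells were read from 1 deposited table of 16244 genes. Trimmed reads had been mapped by the authors with STAR (mm10), assigned to genes with featureCounts and compared with DESeq2, as the methods state; versions were not given in the sources used here. The deposited values are a signal: each gene's reads times a scale factor of its library, and all values were whole multiples of that factor within 1e-06. The authors' deposited log2 fold changes, q-values (p-values adjusted) and group averages, a rounded score, were not used. Columns of sample values that were not used numbered 0.

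Members and lists were chosen with earlier results of these data known. Members were found in Python 3.11.15 (pandas 2.3.3). All genes with a mean of at least 10 were tested with limma 3.58.1 (R 4.3.3) on log2 of normalized reads plus a pseudocount of 1, at a Benjamini-Hochberg adjusted p under 0.05, with or without a 2-fold minimum. edgeR 4.0.16 and DESeq2 1.42.0 on recovered reads were alternatives. Ratio intervals are exact (95%) from summed reads and cover counting error only. Promoter sequences came from RefSeq (GRCm38.p6, the build mm10), exon lengths and the check for exons from GENCODE. Scripts were tested on simulated data. Members given with values were the 10 with the highest N275D mean, the 5 with the largest ratio (a WT group under 3 reads set to 3), list members, the 3 genes on each side of each limit, and examples of each role group. Some genes are not reported here.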

Additional observations from a re-analysis of the deposited data

How the results depend on the processing

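The count of 115 members moved with the limits that define it: 45 with a WT limit of 5, 173 with a limit of 20, 30 with an N275D mean of at least 20, 52 with a ratio of at least 3 and 21 with a ratio of at least 4. The exchanged rule, which gave 40, went to 19 with a limit of 5, 53 with a limit of 20 and 14 with a mean of at least 20. It gave 23 with a ratio of at least 3 and 8 with a ratio of at least 4. Under each of these settings the rule kept more genes than the exchanged rule. With overlap allowed the counts were 133 and 48, with provisional symbols 139 and 46, with library totals as the scale 137 and 37, with TMM 115 and 42, and with DESeq2 size factors 115 and 40. Leaving out 1 library gave 121 to 138 members and 39 to 50 mirror genes, and 96 to 111 of the 115 remained members each time.

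The 2-fold counts of 325 higher and 102 lower fell to 195 and 64 with a pseudocount of 10 and were 517 and 186 with every gene above 0 tested. edgeR gave 341 and 103, DESeq2 323 and 96, and leaving out 1 library 312 to 354 and 96 to 108. The replicate numbers did not pair the samples (correlations of -0.045, 0.041 and -0.083), and the replicate block gave 326 higher and 102 lower. Without 1 library, the difference between genotype means moved by over 1.5 times in 4 of the 115 members: to 2.94 in Kcnd2, 5.63 in Brsk1 and 5.97 in Ppbp without N275D replicate 1, and to 4.92 in Oasl2 without N275D replicate 2. Most members rest on 10 to 20 reads a library, so counting error limits each ratio.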
